A study of Homo sapiens with 6 samples.

Results

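The 10 genes described here are switched on by ERK signaling, and several of them restrain it: the AP-1 subunit genes FOS, FOSL1 and JUN, the zinc-finger transcription factor gene EGR1, the MAPK phosphatase genes DUSP1, DUSP4, DUSP5 and DUSP6, and the Sprouty genes SPRY2 and SPRY4. They were chosen by gene symbol from a table of 14959 genes, and all 10 were found, each as 1 row. The cells were UM-SCC1, a line of human HNSCC (squamous cell carcinoma of the head and neck), and their RNA was sequenced 48 h after transfection. One group of 3 libraries received miR-204-5p mimics, synthetic double-stranded RNAs that load the cell with this microRNA, and the other group of 3 libraries received control mimics. Each group came from 3 independent experiments, and both groups carried a transfected oligo, so an untransfected state was not measured. The comparison asks how the RNA of these genes differed between cells loaded with miR-204-5p and cells loaded with the control.

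ERK is the last kinase of the RAS, RAF and MEK cascade that growth factor receptors such as EGFR drive in squamous cancers. Active ERK phosphorylates transcription factors, and within minutes immediate-early genes such as FOS, JUN and EGR1 are transcribed without new protein synthesis. Their products dimerize as AP-1 or bind GC-rich DNA, and turn on later genes. The same signal induces its own brakes: DUSP proteins remove phosphate from ERK and related kinases, and Sprouty proteins act upstream, between the receptor and RAF. The RNA of these genes is therefore often read as a record of ERK output, although each of them also answers to other signals, and RNA says nothing of protein or of phosphorylated ERK.

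MiR-204-5p is made from an intron of TRPM3, and its mature form lies at chr9:70810031-70810052 on the minus strand (GRCh38.p14, RefSeq). A microRNA pairs with messenger RNAs mainly through its seed, bases 2 to 8, which is printed in capitals below. It is shared in full with miR-211-5p, at chr15:31065095-31065116 on the minus strand, which is shown because the same target sites would serve both.
hsa-miR-204-5p: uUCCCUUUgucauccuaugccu
hsa-miR-211-5p: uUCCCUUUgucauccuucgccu

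Sites complementary to that seed were looked for on the sense strand of annotated 3′ UTRs (GENCODE 29, GRCh38), using the coding transcript with the longest 3′ UTR for each gene, which for all 10 genes was also the transcript listed in the table. An 8mer site reads AAAGGGAA, a 7mer-m8 site reads AAAGGGA and a 7mer-A1 site reads AAGGGAA, each site being counted once under its longest form. Of the 10 genes, 3 held such a site. EGR1 held an 8mer and a 7mer-m8 in a 3′ UTR of 1234 bases, in exon 2 of 2. They start at positions 16 and 23 and overlap, sharing 1 base. DUSP4 held 2 8mers and a 7mer-m8 in a 3′ UTR of 3962 bases, in exon 4 of 4. DUSP6 held a single 7mer-m8 at position 581 of 2022, in exon 3 of 3. SPRY4 held 2 matches of only 6 bases (AAGGGA), and FOS, FOSL1, JUN, DUSP1, DUSP5 and SPRY2 held none. Among 14654 genes of the table with an annotated 3′ UTR, 8.61% had an 8mer as their longest match, 9.83% a 7mer-m8, 8.67% a 7mer-A1 and 60.6% no match. The DUSP6 stretch is shown, as the site of a gene that rose, with its match in capitals at chr12:89348667-89348673 on the minus strand. These are letter matches in the reference genome, and binding was not measured.
DUSP6 3′ UTR: aattatccAAAGGGAgaaagagc

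Values are FPKM, the sequenced fragments per kilobase of a gene's listed transcript, scaled to the mapped fragments of the library. Differences were tested with limma on log2(FPKM + 1), miR-204-5p minus control mimics, and a gene is said to have risen or fallen only where its Benjamini-Hochberg adjusted p over all 14959 genes was under 0.05. Adding 1 makes the log2 difference smaller than the plain fold for genes of low FPKM, so the ratio of group means stands beside it. A large part of the table moved: 40.8% of genes were called, 23.9% higher and 16.8% lower, and in 53.6% the libraries of the groups did not overlap. The median difference over all genes was 0.03 and the median absolute difference 0.18 on the log2 scale. The libraries held an estimated 13 to 16.4 M fragments, and Spearman correlations of FPKM were 0.990 to 0.991 within groups and 0.973 to 0.976 between groups. In bulk RNA, a change in the number of cells of one state and a change in RNA per cell cannot be told apart. A permutation of 3 against 3 libraries cannot give an exact two-sided p below 0.1, so the calls rest on the spread that limma shares across genes.

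Of the 10 genes, 6 were called: JUN, DUSP5, DUSP6 and SPRY2 rose with the microRNA and EGR1 and DUSP4 fell. FOS, FOSL1, DUSP1 and SPRY4 were not called. The libraries of the groups did not overlap in 7 of the 10. The genes thus moved in both directions, with a median log2 difference of -0.16, and in a table where 40.8% of genes were called and 53.6% did not overlap these counts are no result about the 10 genes as a set. EGR1 lay at the 98.6th percentile of all absolute differences and DUSP5 at the 94.9th, while the remaining 8 lay between the 44.4th and the 84.8th.

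**Figure D1:**
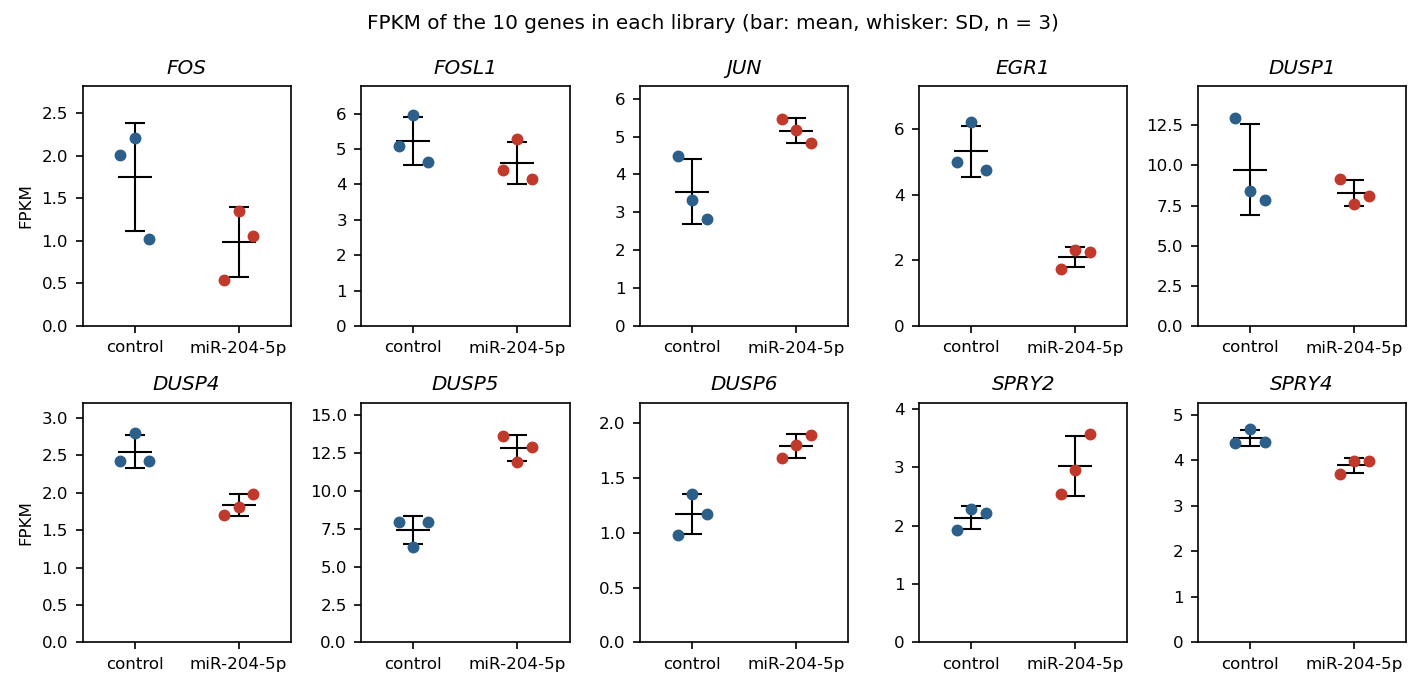
FPKM of each of the 10 genes (vertical axes, each starting at 0 with its own scale) in the 3 control and the 3 miR-204-5p mimic libraries; points are libraries, horizontal bars are group means and whiskers are SD. EGR1 and DUSP4 sit lower and JUN, DUSP5, DUSP6 and SPRY2 higher in every miR-204-5p library than in any control library, and FOS, FOSL1 and DUSP1 overlap between groups.

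EGR1 showed the clearest fall. Its FPKM was 1.74, 2.31 and 2.27 in the miR-204-5p libraries 1 to 3 and 5.01, 6.21 and 4.76 in the control libraries 1 to 3. The highest miR-204-5p library lay well under the lowest control library. The means were 2.11 ± 0.314 and 5.33 ± 0.772 (SD, n = 3 each), a ratio of 0.395, and the log2 difference was -1.02 (SE 0.12, 95% interval -1.30 to -0.75, limma adjusted p = 0.000881). EGR1 is a rapidly induced transcription factor, encoded at chr5:138465490-138469315 on the plus strand (hg38) by a listed transcript of 2 exons and 3138 bases. It remained past the threshold under all 12 alternative settings, with an adjusted p of at most 0.00435.

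Among the AP-1 genes, JUN rose, while FOS and FOSL1 were not called. JUN, the subunit that can pair with itself or with FOS proteins, had FPKM of 5.47, 5.16 and 4.82 in miR-204-5p libraries and 4.50, 3.33 and 2.82 in control libraries. The lowest miR-204-5p library was above the highest control library by a narrow gap, and the control libraries spread more widely than the treated ones. The ratio of means was 1.45 and the log2 difference 0.45 (SE 0.14, limma adjusted p = 0.0370). JUN lies at chr1:58780788-58784327 on the minus strand and has a single exon. Its call was lost in 5 of the 6 fits that left out 1 library, with adjusted p up to 0.105, and among those fits was kept only without control replicate 1 (adjusted p = 0.00663).

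FOS, which needs a JUN partner to bind DNA, was the least abundant of the 10 genes in the miR-204-5p libraries. Its FPKM was 0.540, 1.35 and 1.06 in miR-204-5p libraries and 2.01, 2.20 and 1.02 in control libraries. The third control library lay among the treated ones, so the groups overlapped. The lowest value stands for about 15 fragments and the highest for about 66, at the estimated depth. The log2 difference was -0.46 with a wide interval, -0.99 to 0.07 (limma adjusted p = 0.144). Without control replicate 3 it was -0.67 (adjusted p = 0.0396), so that single library sets which side of the threshold FOS falls on. The listed FOS transcript spans chr14:75278774-75282230 on the plus strand.

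FOSL1, which encodes the FRA-1 protein and is often the longer-lived FOS family product of ERK signaling in carcinoma cells, had 4.42, 5.28 and 4.14 FPKM in miR-204-5p libraries and 5.09, 5.97 and 4.64 FPKM in control libraries. The ranges of the groups overlapped. The log2 difference was -0.15 (95% interval -0.41 to 0.11, limma adjusted p = 0.317), and no alternative called it. The FPKM of FOSL1 rests on a listed transcript of 2 exons and 1427 bases at chr11:65892049-65900419 on the minus strand, 1 of 4 coding transcripts that GENCODE 29 gives for the gene.

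The MAPK phosphatases split. DUSP5, a nuclear phosphatase with a preference for ERK, rose most of the 10 genes. It had 13.6, 12.0 and 12.9 FPKM in miR-204-5p libraries and 7.98, 6.33 and 7.97 FPKM in control libraries, and the groups were far apart relative to their spread. The means were 12.8 ± 0.847 and 7.43 ± 0.951 (SD, n = 3 each), a ratio of 1.73, with a log2 difference of 0.72 (SE 0.096, 95% interval 0.49 to 0.95, limma adjusted p = 0.00164). DUSP5 lies at chr10:110497838-110511544 on the plus strand, in 4 exons, and held no seed match.

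DUSP6, the cytoplasmic ERK phosphatase whose RNA is widely used as a readout of ERK activity, also rose. It had 1.68, 1.80 and 1.89 FPKM in miR-204-5p libraries and 0.981, 1.35 and 1.17 FPKM in control libraries. All 3 treated libraries lay above all 3 control libraries, at low levels throughout. The ratio of means was 1.53 and the log2 difference 0.36 (SE 0.078, 95% interval 0.18 to 0.55, limma adjusted p = 0.0108). Its listed transcript, at chr12:89347232-89353271 on the minus strand, shares 1643 exon bases with an antisense gene (AC024909.2) on the other strand. The counting is not stated to use strand, so reads of DUSP6 and of that gene cannot be told apart here. The only seed match of a gene that rose among the 10 was its 7mer-m8, printed above.

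DUSP4, a nuclear phosphatase induced by ERK, fell. Its FPKM was 1.70, 1.81 and 1.99 in miR-204-5p libraries and 2.43, 2.80 and 2.42 in control libraries. The groups did not overlap and each was tight. The ratio of means was 0.718 and the log2 difference -0.33 (SE 0.073, 95% interval -0.50 to -0.15, limma adjusted p = 0.0130). DUSP4, on chromosome 8, and EGR1 were the only members of the 10 with an 8mer and the only members that fell. Their 3′ UTRs had 3962 and 1234 bases, against a median of 1252 over 14654 genes. A part of the matches in either fall was not tested.

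DUSP1, which encodes a nuclear phosphatase of the stress kinases p38 and JNK as well as ERK, was the most abundant of the 10 genes in control libraries. It had 9.13, 7.58 and 8.11 FPKM in miR-204-5p libraries and 13.0, 8.38 and 7.82 FPKM in control libraries. The first control library stood above all others, and the remaining 5 lay close together. The log2 difference was -0.18 (95% interval -0.61 to 0.24, limma adjusted p = 0.452). Without control replicate 1 it was 0.024 (adjusted p = 0.863), so the direction rested on that library. DUSP1 lies at chr5:172768090-172771195 on the minus strand.

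The Sprouty genes also differed from one another. SPRY2, an inhibitor of receptor tyrosine kinase signaling to RAS and RAF, had 2.54, 2.96 and 3.57 FPKM in miR-204-5p libraries and 1.92, 2.28 and 2.21 FPKM in control libraries. The treated libraries lay above the controls but spread over a range wider than the gap between the means. The ratio of means was 1.41 and the log2 difference 0.35 (SE 0.11, 95% interval 0.10 to 0.61, limma adjusted p = 0.0383). The call was lost in 5 of 6 fits without 1 library, with adjusted p up to 0.111, and was kept without miR-204-5p replicate 1 (adjusted p = 0.0215). SPRY2 lies at chr13:80335976-80339659 on the minus strand.

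SPRY4, which restrains the same pathway, had 3.71, 3.98 and 3.99 FPKM in miR-204-5p libraries and 4.38, 4.69 and 4.39 FPKM in control libraries. Every treated library was below every control library, and the groups were tight, but the difference was small. The ratio of means was 0.867 and the log2 difference -0.17 (SE 0.059, 95% interval -0.31 to -0.02, limma adjusted p = 0.0639). It stayed on the same side of the threshold in all 6 fits without 1 library, and passed it under 4 other settings, with adjusted p from 0.0147 to 0.0440. SPRY4 lies at chr5:142310427-142325001 on the minus strand.

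**Figure D2:**
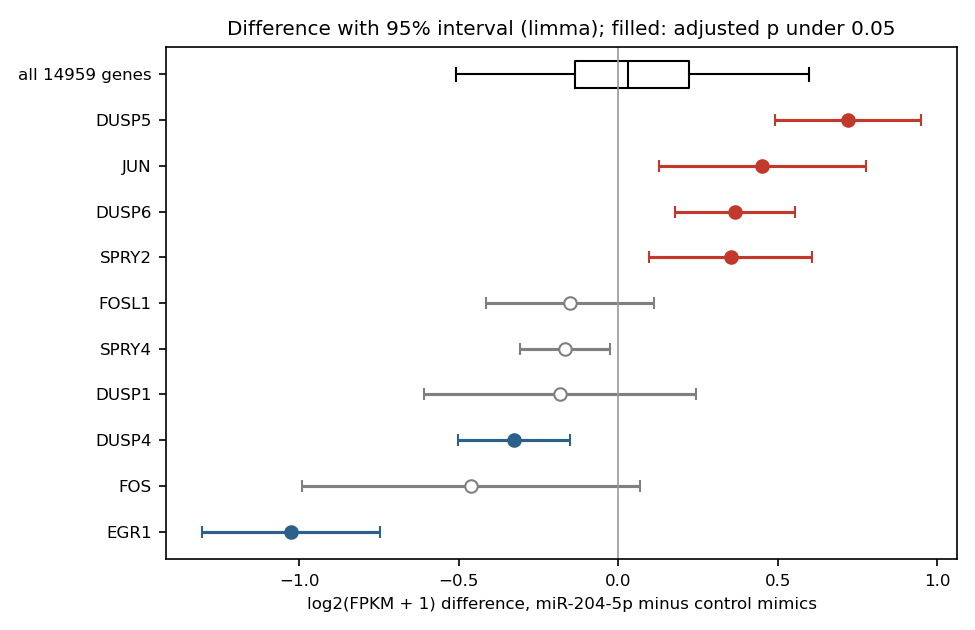
Difference in log2(FPKM + 1), miR-204-5p minus control mimics (horizontal axis), for each of the 10 genes with its 95% interval from limma, ordered by size; filled points have an adjusted p under 0.05, and the top box shows all 14959 genes (box: quartiles and median, whiskers: percentiles 5 and 95). EGR1 at -1.02 and DUSP5 at 0.72 lie beyond the whiskers of the table, and the intervals of FOS, FOSL1 and DUSP1 cross 0.

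FPKM is scaled by the length of the listed transcript, so the levels of these transcripts can be set side by side. GENCODE 29 gives 6 coding transcripts for FOS, 4 for FOSL1, 3 for DUSP6 and 2 each for DUSP4, SPRY2 and SPRY4. How far 1 listed transcript stands for all the RNA of its gene was not tested. In control libraries DUSP1 (9.73 ± 2.83 FPKM, SD, n = 3) and DUSP5 (7.43 ± 0.951) were highest and overlapped each other. EGR1, FOSL1, SPRY4 and JUN followed at 5.33, 5.23, 4.49 and 3.55 FPKM, with each neighbor overlapping the next. DUSP4 came next at 2.55 FPKM, apart from its neighbors on both sides, and SPRY2, FOS and DUSP6 ended the order at 2.14, 1.74 and 1.17 FPKM, again overlapping. With miR-204-5p mimics DUSP5 (12.8 FPKM) stood alone at the top and DUSP1 (8.27) was second, without overlap. JUN (5.15) and FOSL1 (4.61) overlapped, SPRY4 (3.89) and SPRY2 (3.02) stood apart, EGR1, DUSP4 and DUSP6 overlapped at 2.11, 1.83 and 1.79 FPKM, and FOS was last at 0.984 FPKM. Thus EGR1 moved from the third place to the seventh. These levels are low to moderate for the table, since the 10 genes lay between the 26.0th and the 63.7th percentile of mean FPKM.

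Ratios within a library remove any factor common to a whole library. The pairs were chosen after the values had been seen and are given as a description. DUSP6 over DUSP4, the cytoplasmic over a nuclear phosphatase, was 0.990, 0.993 and 0.952 in the miR-204-5p libraries and 0.405, 0.482 and 0.485 in the control libraries. DUSP5 over DUSP4 was 7.05 ± 0.867 and 2.95 ± 0.596 (SD, n = 3 each). The phosphatases therefore changed unequally, and DUSP6 came close to the level of DUSP4 in the miR-204-5p libraries. SPRY2 over SPRY4 was 0.685, 0.743 and 0.895 in miR-204-5p libraries and 0.437, 0.487 and 0.504 in control libraries. EGR1 over JUN was 0.318, 0.447 and 0.470 in miR-204-5p libraries and 1.11, 1.86 and 1.69 in control libraries, so the order of these transcription factor RNAs was opposite in the groups. JUN over FOS was 10.1, 3.81 and 4.56 in miR-204-5p libraries against 2.24, 1.51 and 2.76 in control libraries, where the first value rests on the lowest FOS library. None of these ratios overlapped between groups. For all but JUN over FOS this follows from the genes themselves, whose groups already lay apart in opposite directions. It adds no evidence beyond the values of the single genes.

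**Figure D3:**
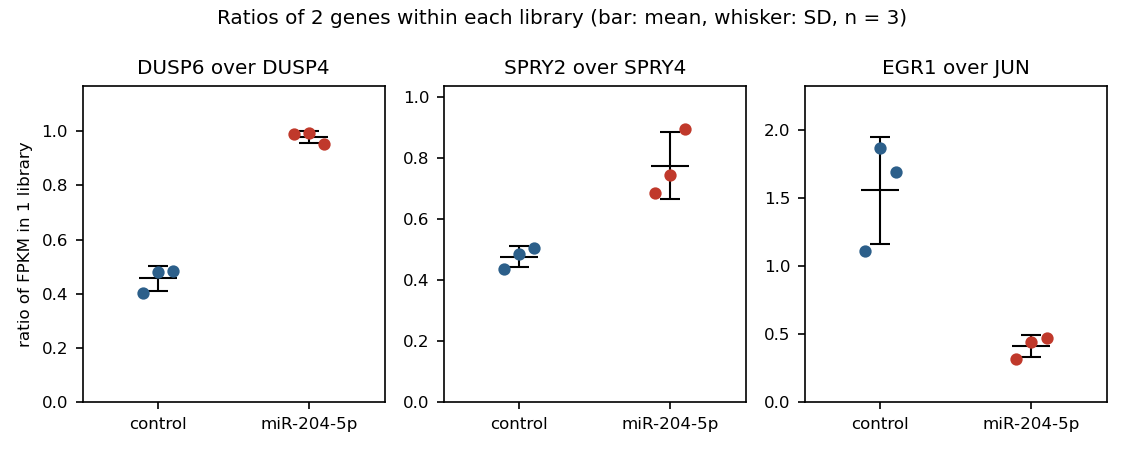
Ratio of the FPKM of 2 genes within each library (vertical axes, from 0) for DUSP6 over DUSP4, SPRY2 over SPRY4 and EGR1 over JUN, in control and miR-204-5p mimic libraries; points are libraries, bars means and whiskers SD. The first and second ratios are higher and the third is lower in every miR-204-5p library than in any control library.

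Relatives of the 10 genes, taken from lists, carried most of the summed FPKM in each of their families. Each value is that of 1 listed transcript, so the sums and shares have the same limit as the order above. FOS, FOSB, FOSL1 and FOSL2 summed to 29.6 ± 0.393 FPKM in miR-204-5p libraries and 48.1 ± 4.27 in control libraries. FOSL2 alone held 83.3% of that FPKM. JUN, JUNB and JUND summed to 97.7 ± 4.54 and 116 ± 4.76 FPKM, of which JUNB held 78.6%. JUNB over JUN was 13.9 ± 1.28 in miR-204-5p libraries and 28.1 ± 6.03 in control libraries. In the AP-1 pool as a whole, then, JUN rose while the most abundant JUN family gene, JUNB, fell (log2 difference -0.42, limma adjusted p = 0.00132). The 10 measured MAPK phosphatase genes summed to 71.5 ± 2.79 and 91.9 ± 4.79 FPKM, with 43.9% in DUSP9, and the 4 phosphatases followed here summed to 24.7 ± 1.52 and 20.9 ± 3.04 FPKM (SD, n = 3 for each sum). The 7 Sprouty and SPRED genes summed to 21.5 ± 1.04 and 22.1 ± 0.670 FPKM.

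The rest of the pathway was read from 7 lists of 81 genes in all, written from general knowledge, of which 79 were in the table. Of these 79, 19 were higher and 28 lower, the groups did not overlap in 53, and the median log2 difference was -0.03. Over all 14959 genes, 23.9% were higher, 16.8% were lower and 53.6% showed no overlap. Of the 79 genes, 66 had a mean of at least 1 FPKM, and no background of genes at matched levels was drawn. The counts here and for each list below are therefore a description and no result about the lists as sets. The other AP-1 subunits had 4 of 7 higher and 2 lower (median 0.36). FOSL2 fell from 41.0 to 23.8 FPKM (log2 difference -0.76, limma adjusted p = 0.000322), JUNB fell as above, and ATF3, a stress-induced AP-1 partner, rose from 3.88 to 6.78 FPKM (0.67, adjusted p = 0.000389). JUND also rose, and the called genes BATF and BATF3 were low, under 1 FPKM.

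Among other immediate-early genes 5 of 20 were higher and 4 lower (median 0.10 on the log2 scale). The largest differences of all 79 were those of CYR61 and CTGF, which encode secreted matricellular proteins and are best known as target genes of YAP and TEAD. CYR61 had 27.1, 25.6 and 23.2 FPKM in miR-204-5p libraries and 7.34, 7.15 and 7.48 FPKM in control libraries (log2 difference 1.66, limma adjusted p = 3.09e-05). CTGF had 3.15, 3.59 and 3.31 FPKM against 0.638, 0.883 and 0.522 FPKM (1.38, adjusted p = 0.000149). BTG2, an antiproliferative gene, fell from 11.7 to 6.06 FPKM (-0.84, adjusted p = 0.000116). KLF10, IER3 and SRF were lower and NR4A1 and MCL1 higher, and NR4A3 was low. The list thus did not move as a block, and EGR1 was lower while CYR61, a fellow immediate-early gene, was higher.

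Of the other MAPK phosphatases none of 6 was higher and 2 were lower (median -0.11). DUSP9, a cytoplasmic phosphatase of ERK and the most abundant of the family here, fell from 47.2 ± 1.82 to 24.5 ± 1.03 FPKM (SD, n = 3 each; log2 difference -0.92, limma adjusted p = 6.98e-05), and DUSP10, which prefers p38 and JNK, fell from 1.68 to 1.03 FPKM (-0.39, adjusted p = 0.0213). The DUSP10 call was lost in 5 of 6 fits without 1 library. Of the other Sprouty, SPRED and ERRFI1 genes 1 of 6 was higher and 3 were lower (median -0.13): SPRED3 rose (0.43), SPRED1 fell (-0.30), ERRFI1, an inhibitor of EGFR, fell (-0.27), and SPRY3 was low.

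Later ERK output genes had 4 of 8 higher and 1 lower (median 0.20 on the log2 scale). LIF, a cytokine of the IL-6 family, rose from 7.08 to 12.5 FPKM (0.75, limma adjusted p = 0.00168), the receptor EPHA2 rose from 8.64 to 14.1 FPKM (0.65, adjusted p = 0.000607), and the cell cycle gene CCND1 rose from 57.1 to 79.1 FPKM (0.46, adjusted p = 0.000279). ETV5 also rose, and EPHA4 was low. Within the ERK cascade itself 3 of 20 were higher and 10 lower (median -0.18). HRAS fell from 62.4 to 38.9 FPKM (-0.67, adjusted p = 5.77e-05), and the exchange factors SOS2 and SOS1 fell by 0.67 and 0.55. NRAS, SHC1, PTPN11, EGFR, MAP2K1 and MAP2K2 were among the other genes that were lower, and GAB1, GRB2 and RASA1 were higher. Among the substrates of ERK 2 of 12 were higher and 6 lower (median -0.20), led by MKNK2 (-0.87), ELK4 (-0.56), which binds DNA with SRF, and RPS6KA4 (-0.49). The EPHA4 call was lost in all 6 fits without 1 library, and in those fits 8 to 10 cascade genes were lower, with MAP2K1 and MAP2K2 among the calls lost.

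**Figure D4:**
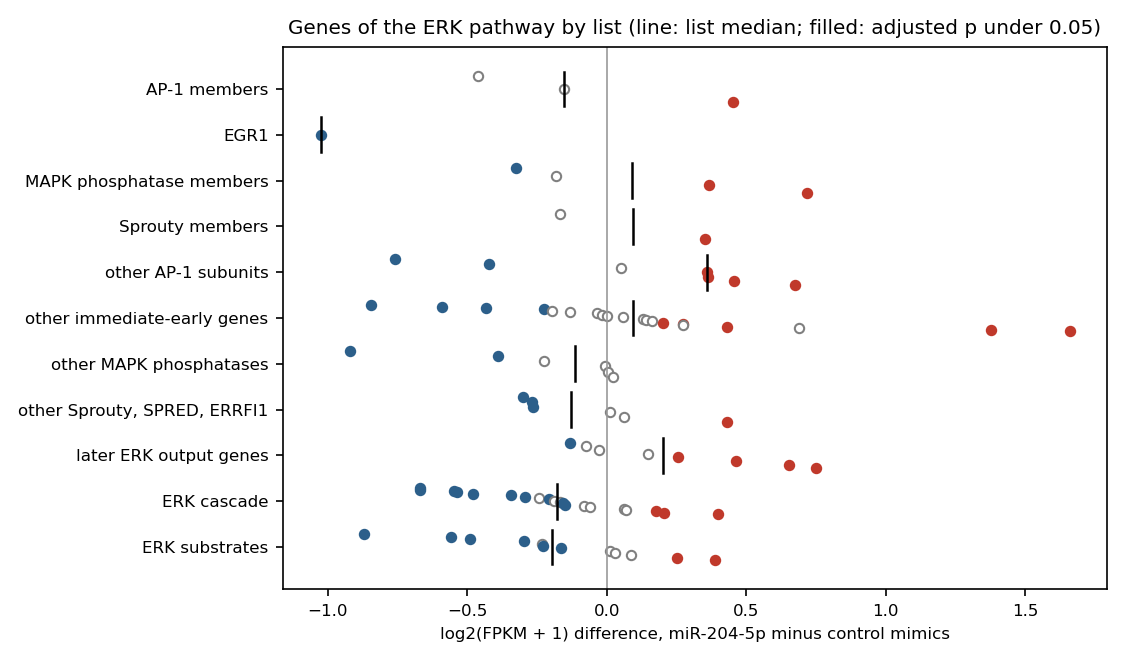
Difference in log2(FPKM + 1), miR-204-5p minus control mimics (horizontal axis), for every gene of the 4 groups described here and of the 7 lists of related genes (rows); vertical lines are medians, and filled points have a limma adjusted p under 0.05, red higher and blue lower. Each of the 7 lists but the other MAPK phosphatases holds called genes on both sides of 0, and the ERK cascade and ERK substrates have most of theirs below 0.

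For each of the 10 genes, the one of 66 pathway genes with a mean of at least 1 FPKM whose profile over the 6 libraries lay closest was found, after centering log2(FPKM + 1) of each gene on its own mean. The distance is the root mean square difference on the log2 scale. EGR1 lay closest to DUSP9 (0.153), DUSP5 to EPHA2 (0.0952), DUSP4 to SPRED1 (0.0650), DUSP6 to JUND (0.0584, JUND having risen from 16.1 to 21.0 FPKM), SPRY2 to SPRED3 (0.0766) and SPRY4 to EGFR (0.0504). JUN lay closest to GAB1 (0.143), FOSL1 to MAPK3 (0.0851), DUSP1 to KLF6 (0.150) and FOS to NF1 (0.172). The distances of FOS, EGR1, DUSP1 and JUN were the longest, and 6 libraries in 2 groups give such distances little more than the group difference to work with.

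Among the pathway genes with an annotated 3′ UTR, a 7mer or 8mer complementary to the seed was present in 12 of 27 that fell, 4 of 19 that rose and 9 of 32 that were not called. An 8mer was present in 6, 1 and 2 of these. Among the 10 genes the same counts were 2 of 2 that fell, 1 of 4 that rose and none of 4 not called. Over the table, 33.5% of genes with an 8mer were lower and 13.3% higher, while the shares were 25.4% and 16.7% for genes whose longest match was a 7mer-m8, as in DUSP6, and 12.5% and 28.1% for genes without a match. The differences between these shares were not tested, and they say nothing of why any single gene changed. None of the counts or shares was adjusted for 3′ UTR length, and a longer 3′ UTR is likelier to hold a match.

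Many immediate-early RNAs are short-lived because of AU-rich elements, so the pentamer AUUUA was counted in the 3′ UTRs on the sense strand, with overlapping copies counted. The density was 6.20 per kb in FOS and 5.95 in DUSP1, against a median of 1.55 over 14654 genes. SPRY2, JUN and SPRY4 had 2.56, 2.33 and 2.12 per kb, and DUSP4, FOSL1, EGR1 and DUSP6 had 1.51, 1.19, 0.810 and 0.495 per kb. DUSP5 had none in 1118 bases. The longer form UAUUUAU was present in 7 of the 10 genes and in 33.4% of all genes. RNA stability was not measured.

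Promoter sequence (250 bases before to 50 after a start, GRCh38.p14, RefSeq) was on hand for 7 of the 10 genes and 9 starts. For JUN, DUSP6 and SPRY4 the window did not hold the start of the transcript listed for FPKM. Within these stretches the CArG box, the site of SRF, was found in EGR1 alone, in 2 copies starting 105 and 83 bases before the start. It occurred in 1.29% of 35116 promoters. Sites farther upstream than 250 bases, and the promoters of FOSL1, DUSP4 and DUSP5, were not searched. Absence of a site from the other genes therefore holds for these windows only. The cyclic AMP response element TGACGTCA occurred once, in DUSP1 (1.85% of promoters), and the AP-1 site, spelled TGAGTCA or TGACTCA, in none of the 9 (4.95%). The EGR1 stretch, at chr5:138465364-138465415 on the plus strand, is shown with its CArG boxes in capitals. SRF was called lower, by 0.22 on the log2 scale (limma adjusted p = 0.0289, lost in 4 of 6 fits without 1 library). A part of SRF, or of the EGR1 seed matches, in the fall of EGR1 was not tested. Letters say nothing of SRF binding, which was not measured.
EGR1 promoter: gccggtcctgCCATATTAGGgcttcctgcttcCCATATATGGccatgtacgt

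**Figure D5:**
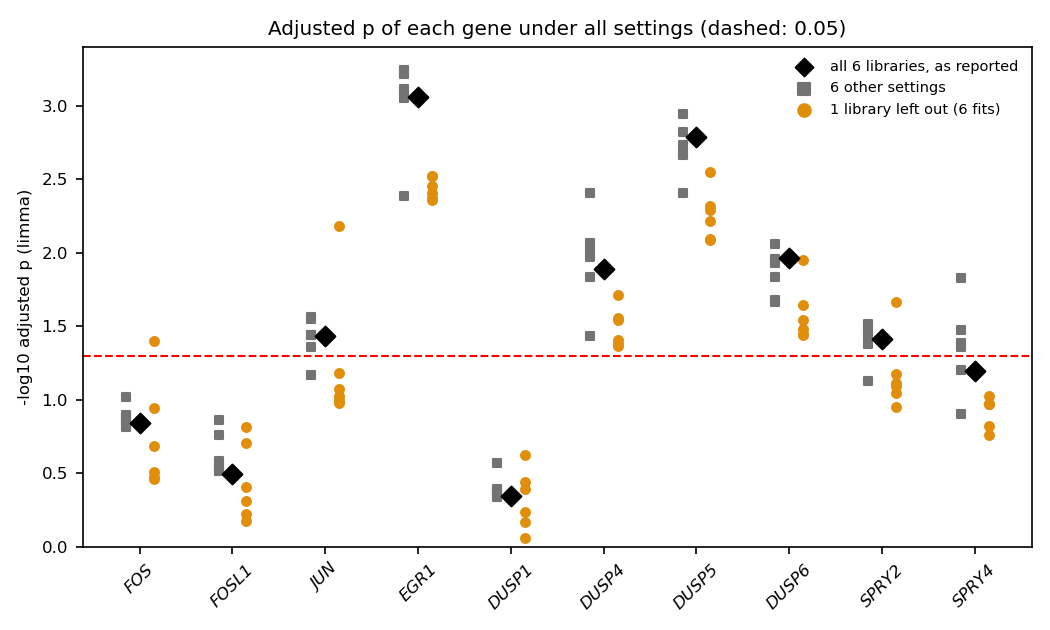
Size of the limma adjusted p as -log10 (vertical axis) for each of the 10 genes under all 6 libraries as reported (black), under 6 other settings (grey) and in 6 fits that each left out 1 library (orange); the dashed line is 0.05. EGR1, DUSP4, DUSP5 and DUSP6 stay above the line throughout, FOSL1 and DUSP1 stay below it, and JUN, SPRY2, SPRY4 and FOS cross it.

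The libraries carried the markers of squamous epithelium: all 8 were present, summing to 588 to 685 FPKM in miR-204-5p libraries and 791 to 814 FPKM in control libraries, with 5 of 8 called lower and 2 higher. Of 7 fibroblast markers 4 were in the table, summing to 9.81 to 11.6 and 8.58 to 9.41 FPKM, nearly all of it COL1A1. The 7 leukocyte and endothelial markers summed to 22.5 to 25.0 and 27.2 to 28.3 FPKM, from CD14 and CD68, while PTPRC, CD3E, PECAM1, CDH5 and VWF were under 1 FPKM. The 8 interferon-induced genes, which transfected RNA can switch on, summed to 95.6 to 99.0 and 85.2 to 117 FPKM, with 1 higher and 1 lower. The squamous and the leukocyte and endothelial sums did not overlap between groups, and their part in the differences of the 10 genes was not tested.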

How the data were processed

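RNA-seq libraries of UM-SCC1 cells (TruSeq RNA kit and an Illumina HiSeq instrument, per the study's methods) were analysed from 1 deposited gene table. Its FPKM values were computed by the authors for 1 listed transcript a gene. HISAT2, StringTie and hg38 are named in the submitters' processing notes; versions, annotation, strand setting and filters are not given in the sources used here. The table's log2 ratios, p-values and FDR come from the authors' own comparison (edgeR is named) and were not used. It holds no counts. Depth was estimated from the step of low FPKM values among 1174 genes with a single transcript (15.1 to 17.9% of low values were whole multiples within 0.005, against 0.679 to 0.718% at other steps).

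Groups came from the labels. Log2(FPKM + 1) of every gene, unfiltered and not rescaled, was fitted by lmFit of limma 3.58.1 (R 4.3.3) and moderated by eBayes with a trend; tests were two-sided, with Benjamini-Hochberg adjustment over 14959 genes at 0.05. On simulated data of 14959 genes for this comparison, 182 of 200 genes changed by 1 on the log2 scale were called, and 12 unchanged genes. Smaller differences, such as those of the called genes other than EGR1, were not simulated, nor was a table with as many changed genes. Alternatives were a pseudocount of 0.1, a mean FPKM of at least 1, a replicate block, equal medians, quantile normalization, no trend, and leaving out each library. The members and lists were chosen with earlier results of these data known, so no p was adjusted over a list and no set was tested. All 10 genes are named; from each related list any called gene may be named, with values for at most the 3 largest differences among genes of at least 1 FPKM, and the closest gene to each of the 10. Symbols were matched directly or through gene IDs (CCN1 and CCN2 are listed as CYR61 and CTGF), and EGR2 and EGR3 were not analysed here. All 10 listed transcripts matched GENCODE 29 in coordinates and length. MicroRNA and promoter sequences are from RefSeq (GRCh38.p14), with promoters matched for 7 of the 10 genes. Some items of the lists and sequences are not reported here.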

Additional observations from a re-analysis of the deposited data

How the results depend on the processing

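Of 12 alternatives, EGR1, DUSP4, DUSP5 and DUSP6 kept direction and call in all 12, with highest adjusted p of 0.00435, 0.0427, 0.00817 and 0.0361 (limma). JUN and SPRY2 passed in 6 of 12, SPRY4 in 4, FOS in 1, and FOSL1 and DUSP1 in none. The number of the 10 genes called was 4 to 7, and the number called higher fell to 2 under quantile normalization (JUN 0.0677 and SPRY2 0.0744, adjusted p) and was 2 to 3 when 1 library was left out; fewer libraries enter those fits, and the cause under quantile normalization was not tested. Without 1 library the log2 difference of DUSP1 ran from -0.31 to 0.024, reversing without control replicate 1, the only direction among the 10 genes to reverse. Of 47 called pathway genes 36 kept their call in every alternative they entered, 11 lost it in at least 1, and none reversed. With 1 library left out, 4971 to 5371 of all genes were called. The excess of higher over lower calls across the table depended on scaling. It was 3578 against 2520 as reported, 3335 against 2756 with equal medians, and 3043 against 3026 with quantile normalization.

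The labels give both groups the replicate numbers 1 to 3. Deviations of same-numbered libraries from their group means correlated at -0.04, -0.02 and -0.11 over 11504 genes. Those of differently numbered libraries correlated at -0.07 to 0.11. With 3 libraries a group, each centered on its group mean, such values cannot show whether same-numbered libraries shared an experiment. With a replicate block 5096 genes were called in place of 6098, the same 6 of the 10 genes passed, and 7 in place of 10 ERK cascade genes were lower (EGFR, MAP2K1 and MAP2K2 did not pass). FOS rested on the fewest fragments, about 15 to 66 a library, and no value of protein or ERK phosphorylation was available to set beside the RNA.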

Other observations

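Of the other immediate-early genes, MYC and IER2 were counted above as not called, and their values in each library are given here because they spread widely within groups. MYC had 29.1, 39.3 and 2.73 FPKM in the miR-204-5p libraries and 17.5, 1.99 and 18.6 FPKM in the control libraries, so that 1 library in each group stood far under the others (log2 difference 0.69, SE 1.10, limma adjusted p = 0.657). IER2 had 28.8, 12.8 and 12.9 FPKM against 12.3, 29.8 and 13.0 FPKM, with 1 library in each group standing above the others (SE 0.42, adjusted p = 1.00). Neither pattern follows the groups or the replicate numbers, and both genes were named after their values had been seen. Each gene carries a single listed transcript in the table, and whether reads moved between transcripts of these genes was not tested.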
